A study of Mus musculus with 6 samples.

Results

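Tsku, Ahsg, Fetub, Lect2, Selenop, Enho and Rbp4, genes for proteins that the liver secretes into the blood, were followed in primary hepatocytes of alcohol-fed mice. They were chosen by name, 7 of the 25718 genes of the deposited table, and the choice was made with the result of this genotype comparison in view. Their differences between genotypes are therefore given as a description, with a standard error and without a test. The comparison set libraries from WT mice (n = 3) against libraries from S100a16KO+/- mice (n = 3), all of them alcohol-fed. Whether each library came from 1 mouse is not given in the sources used here. The comparison addressed which hepatocyte transcripts differ in alcohol-fed mice that lack 1 copy of S100a16, which encodes a calcium-binding protein of the S100 family. Per the study's methods, the animals were male, 8 to 10 weeks old and largely of C57BL/6 background. The S100a16KO+/- mice carried a floxed S100a16 allele deleted through EIIa-Cre, which acts in the whole body, so the liver and all other tissues were heterozygous. Homozygous loss was lethal. The sample labels call this genotype an S100A16 knockdown. Both genotypes received a control liquid diet for 5 days, a diet with 5% ethanol for 10 days and a single gavage of 5 g/kg ethanol, and were taken 9 h later. No library of mice without ethanol is among the 6 analysed here, so all values below describe alcohol-fed animals. Hepatocytes were separated by collagenase perfusion and a Percoll step, and the time in culture before RNA extraction is not given in the sources used here.

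The estimated counts summed to between 67658095 and 71807834 per library. S100a16 itself had 1001, 1056 and 1107 counts in WT and 433, 390 and 366 counts in S100a16KO+/- hepatocytes, which follows the labels. The hepatocyte markers Alb, Apoa1, Ttr, Serpina1a, Cyp2e1, Cps1, Hnf4a and Tat were abundant in all 6 libraries, with a summed level of 113443 to 125346 CPM (counts scaled to a common library total with TMM factors) in WT and 109719 to 121587 CPM in S100a16KO+/-. Of these, Tat was called higher and Ttr and Cyp2e1 lower in the test named below. Markers of 3 other cell types were present at low level and differed between genotypes. The 8 sinusoidal endothelial markers summed to 240.6 to 247.5 CPM in WT and to 346.9 to 362.8 CPM in S100a16KO+/-, with 7 called higher and Lyve1 lower. The 8 stellate cell and fibroblast markers summed to 39.8 to 43.9 CPM in WT and to 72.0 to 78.4 CPM in S100a16KO+/-, with 4 called, each of them higher. The 5 measured erythroid markers, mainly haemoglobin chains, summed to 214.8 to 252.2 CPM in WT and to 23.4 to 26.3 CPM in S100a16KO+/-, with all 5 called lower. None of the markers of these 3 lists that were measured was at 0 in any library. Their part in the results below was not tested. In RNA from many cells, fewer cells of a type and less RNA per cell cannot be told apart. Of 15957 genes that passed the filter on low counts, 3643 were called different between genotypes at an adjusted p under 0.05 (edgeR's quasi-likelihood test). That is 22.8% of the tested genes, with 11.6% higher and 11.2% lower in S100a16KO+/- hepatocytes, and the 3 libraries of each genotype did not overlap for 37.9% of them. Each library was taken as a separate preparation, and the p-values set the genotype difference against the spread among libraries of the same genotype.

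Hepatokines are proteins that hepatocytes release into the circulation and that act on other organs, much as hormones do. Tsukushi, the product of Tsku, is a small leucine-rich repeat proteoglycan that binds growth factors and has been linked to cholesterol handling and energy use. Fetuin-A, from Ahsg, keeps calcium phosphate in solution in plasma and inhibits the insulin receptor. Fetuin-B, from the neighbouring Fetub, inhibits metalloproteases of the astacin family. Lect2 encodes leukocyte cell-derived chemotaxin, a zinc-binding protein with effects on MET signalling and on immune cells. Selenoprotein P carries selenium from the liver to other organs, and its coding sequence holds several UGA codons read as selenocysteine. Enho encodes the precursor of adropin, a peptide tied to glucose and lipid metabolism. Rbp4 encodes the plasma carrier of retinol, which travels with transthyretin. Transcripts of some such proteins are among the most abundant of the hepatocyte.

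The 7 genes covered a wide range of levels. Values in FPKM, fragments scaled for transcript length and library size, which allow genes to be compared per length, had a mean of 5142 ± 40.1 for Ahsg in WT hepatocytes (SD, n = 3). They were 3423 ± 210.2 for Rbp4 and 2594 ± 52.1 for Selenop, and both genes stayed below Ahsg in every library. Fetub followed with 221.2 ± 8.60 FPKM, Tsku with 92.3 ± 3.69, Lect2 with 68.5 ± 3.39 and Enho with 5.71 ± 0.272. Neighbours in this order did not overlap among the WT libraries. Ranked by FPKM among all genes of the table, Ahsg stood at place 23 in each WT library, Rbp4 at places 24 to 28 and Selenop at places 34 and 35. Tsku stood at places 343 to 386 and Enho at places 3245 to 3477. In S100a16KO+/- hepatocytes the order was the same but for Tsku, which lay below Lect2 and just above Enho. Its rank was 1971 to 2218 there, while Lect2 moved from places 458 to 480 up to places 391 to 415. Of all counts, the 7 genes held 2.63% to 2.72% in WT and 3.05% to 3.12% in S100a16KO+/- hepatocytes.

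**Figure D1:**
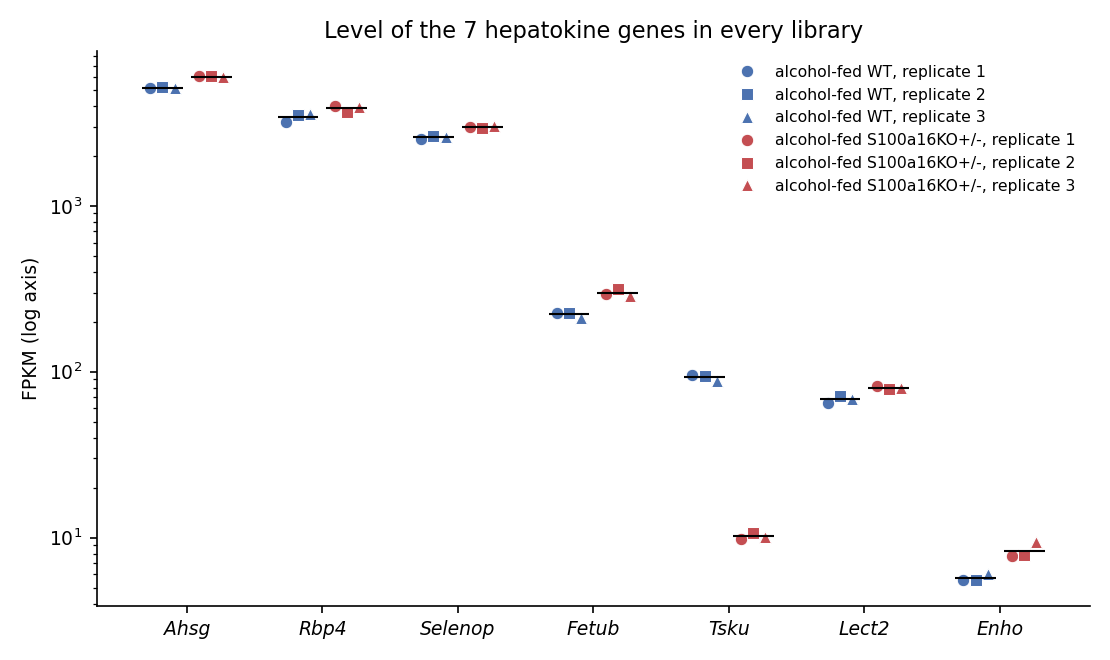
FPKM on a log axis for the 7 hepatokine genes, in order of their WT mean, with 1 point for each library (3 alcohol-fed WT, 3 alcohol-fed S100a16KO+/-) and a line at each mean. Tsku lay at 88.1 to 95.0 FPKM in WT and at 9.81 to 10.6 FPKM in S100a16KO+/-. The other 6 genes were higher in S100a16KO+/-, by 13.1% (Rbp4) to 46.2% (Enho) in mean FPKM.

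Tsku had the largest difference of the 7 genes. It had 341.7, 309.9 and 295.8 CPM in WT and 32.8, 38.3 and 33.0 CPM in S100a16KO+/- hepatocytes. The lowest WT library was thus 7.72 times the highest S100a16KO+/- library. The means were 315.8 ± 23.5 CPM and 34.7 ± 3.12 CPM (SD, n = 3 each), 9.10-fold lower in S100a16KO+/-, with a log2 fold change of -3.19 (standard error 0.08). Behind these values stood 20245 to 23338 counts in WT and 2270 to 2462 counts in S100a16KO+/-, so the transcript remained well measured in both genotypes. Among all tested genes, 28 were lower by as much or more on the log2 scale, Tsku included. Among the 967 tested genes that averaged 100 CPM or more, 4 were, Tsku included. The haemoglobin chains, whose values stand above, were lower by a comparable factor in the same libraries. Tsku (ENSMUSG00000049580) spans 98350668 to 98361292 of chromosome 7 (GRCm38, minus strand), in a transcript of 2 exons with 354 codons, and no other gene of the table overlaps it. The nearest tested gene, Acer3, which encodes an alkaline ceramidase, lies 29460 bases away and was lower as well (log2 fold change -0.50, standard error 0.10, edgeR adjusted p = 0.00184).

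The fetuin genes lie side by side and were both higher. Ahsg had 13230, 12348 and 12416 CPM in WT and 14508, 15699 and 13987 CPM in S100a16KO+/-. The genotypes did not overlap, but the nearest libraries were only 1.06-fold apart. The log2 fold change was 0.22 (standard error 0.05), or 16.3% more by mean CPM. In FPKM, the authors' own scaling, the libraries of a genotype lay closer together, at 5108, 5186 and 5133 in WT and at 6035, 6056 and 5935 in S100a16KO+/-. Fetub had 521.7, 482.1 and 456.4 CPM in WT and 633.2, 726.7 and 602.3 CPM in S100a16KO+/-. Here the difference was larger, 34.4% by mean CPM, with a log2 fold change of 0.43 (standard error 0.07). Ahsg (ENSMUSG00000022868) spans 22891277 to 22899449 of chromosome 16 and Fetub (ENSMUSG00000022871) 22918334 to 22939778, both on the plus strand and 18885 bases apart. The long non-coding Gm30505 overlaps Ahsg by 3110 bases on the other strand and had 95 to 133 counts, against at least 849745 for Ahsg.

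Other members of the cystatin group beside the fetuins rose with them. Hrg, for histidine-rich glycoprotein, rose from 1254 ± 81.8 to 1719 ± 217.6 CPM (SD, n = 3 each; log2 fold change 0.46, standard error 0.09, edgeR adjusted p = 0.00434). Kng2 and Kng1, which encode kininogens, rose by log2 fold changes of 0.45 (standard error 0.05, edgeR adjusted p = 1.09e-05) and 0.36 (standard error 0.04, edgeR adjusted p = 2.48e-05). The 2 kininogen genes are close copies, so reads may have been split between them. Within 100000 bases of Ahsg, 5 of 6 tested genes were called, each of them higher, beside 22.8% called of all tested genes. They included Fetub, Hrg, Kng2, the chaperone gene Dnajb11 at 0.91 (standard error 0.05, edgeR adjusted p = 1.89e-08) and Tbccd1 at 0.39 (standard error 0.09, edgeR adjusted p = 0.00552). The insulin receptor gene Insr, a target of fetuin-A, had 146.5 to 148.7 CPM in WT and 137.5 to 146.6 CPM in S100a16KO+/- and was not called (log2 fold change -0.05, edgeR adjusted p = 0.527). Of the meprins that fetuin-B inhibits, Mep1a had at most 4 counts in any library and could not be tested. The list of fetuin neighbours and targets, chosen with earlier results of these data known, thus had 3 of 4 tested genes called, all higher. Of all tested genes, 22.8% were called and 11.6% were called higher. The median log2 fold change of the list was 0.41, beside 0.01 for all tested genes.

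Lect2 and Enho were the less abundant of the higher genes. Lect2 had 70.4, 71.4 and 69.6 CPM in WT and 82.8, 85.3 and 78.7 CPM in S100a16KO+/-. The WT libraries were nearly equal, and all S100a16KO+/- libraries lay above them (log2 fold change 0.22, standard error 0.05). Enho had 8.38, 7.60 and 8.42 CPM in WT and 10.7, 11.8 and 12.8 CPM in S100a16KO+/-. This was the largest relative difference among the 6 higher genes, 45.1% by mean CPM, with a log2 fold change of 0.54 (standard error 0.11). It rested on 535 to 576 counts per WT library and 744 to 925 per S100a16KO+/- library, the fewest of the 7 genes, and the spread within S100a16KO+/- was 11.3% of the mean in FPKM. Lect2 (ENSMUSG00000021539) spans 56542464 to 56548502 of chromosome 13 (minus strand), with 151 codons. Enho (ENSMUSG00000028445) spans 41638144 to 41640324 of chromosome 4 (minus strand), with 76 codons. The opposite-strand genes Gm12406 and Dnaic1 overlap Enho by 947 and 15 bases and had at most 4 and 16 counts.

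Selenop and Rbp4, both carriers of a micronutrient, showed the smallest differences. Selenop had 8494, 8111 and 8177 CPM in WT and 9319, 9805 and 9219 CPM in S100a16KO+/-. The groups were separate, with a log2 fold change of 0.19 (standard error 0.04) and 14.4% more by mean CPM. Rbp4 had 5039, 5122 and 5277 CPM in WT and 5867, 5831 and 5687 CPM in S100a16KO+/-. The nearest libraries were 1.08-fold apart, the log2 fold change was 0.17 (standard error 0.04) and the mean was 12.6% higher. Selenop (ENSMUSG00000064373) spans 3268547 to 3280508 of chromosome 15 (plus strand), with 380 codons of which 10 are annotated as selenocysteine. Ccdc152, on the other strand, overlaps its end by 439 bases and had 325 to 886 counts, against at least 559630 for Selenop. Rbp4 (ENSMUSG00000024990) spans 38116629 to 38125281 of chromosome 19 (minus strand), and no other gene of the table overlaps it.

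All 7 genes were thus separate between genotypes in CPM and in FPKM, Tsku lower and the other 6 higher. This direction was what they were chosen with, and it stands beside a background of 37.9% of tested genes without overlap. Differences of the size seen in Ahsg, Lect2, Selenop and Rbp4 were common, since they lay below 0.25, the median absolute log2 fold change of all tested genes. Those of Fetub and Enho, 0.43 and 0.54, lay above it. That median also takes in genes of far lower level. The median log2 fold change of all tested genes was 0.01.

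Ratios inside a library do not depend on the scaling between libraries and showed which members moved apart. There were 18.6, 18.1 and 17.2 Tsku FPKM per 1000 Ahsg FPKM in WT and 1.63, 1.76 and 1.70 in S100a16KO+/-, a 10.6-fold lower ratio. Per Lect2, Tsku stood at 1.46, 1.31 and 1.28 in WT and at 0.119, 0.135 and 0.126 in S100a16KO+/-. So Tsku was the more abundant of these transcripts in each WT library and the less abundant in each S100a16KO+/- library. The ratio of Fetub to Ahsg was 0.0442, 0.0437 and 0.0412 in WT and 0.0489, 0.0518 and 0.0482 in S100a16KO+/-. Its mean was 1.15-fold higher, and the genotypes did not overlap, although both genes were higher in S100a16KO+/-. Rbp4 per Selenop ran from 1.26 to 1.37 in WT and from 1.26 to 1.33 in S100a16KO+/-, and Lect2 per Ahsg from 0.0127 to 0.0138 and from 0.0130 to 0.0136. Those ratios overlapped between genotypes.

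**Figure D2:**
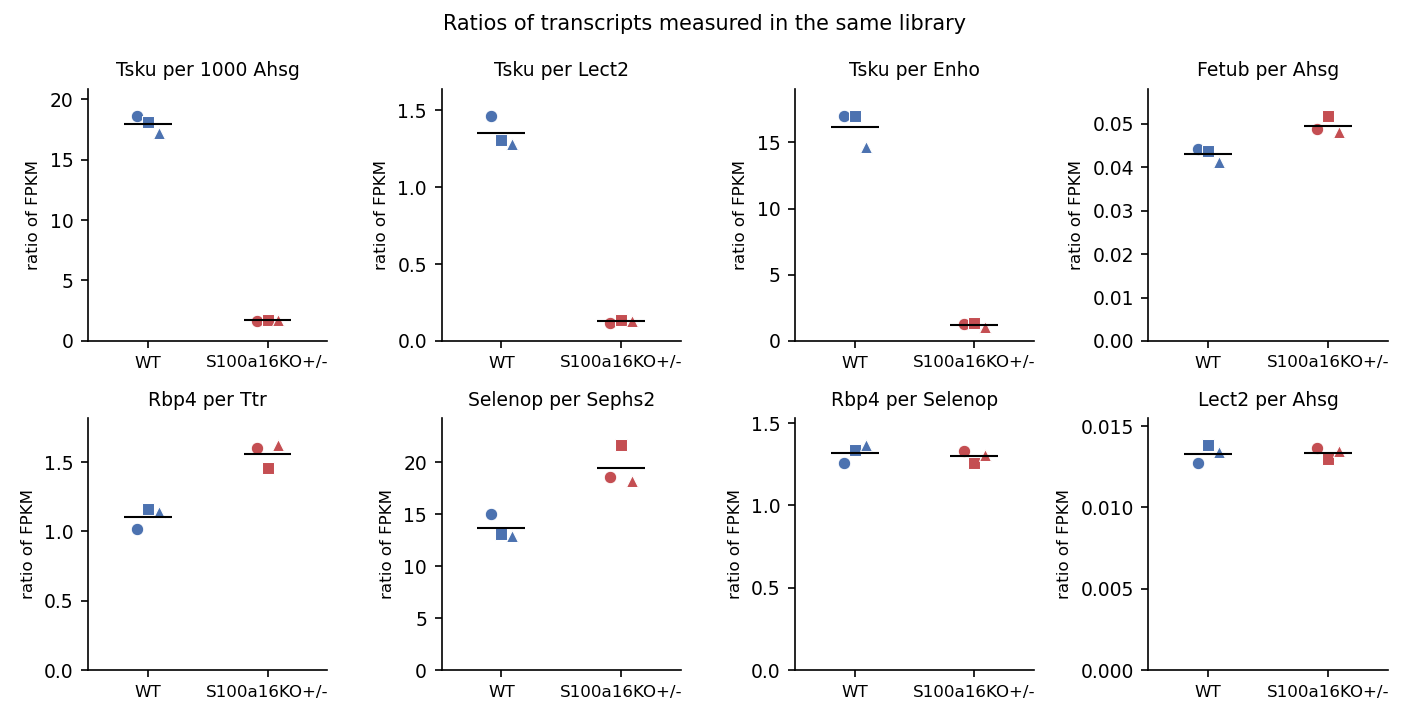
Ratios of FPKM values measured in the same library, with 1 point for each library (blue, 3 alcohol-fed WT; red, 3 alcohol-fed S100a16KO+/-), the same symbol for the same replicate number, and a line at each mean. Each y axis starts at 0. The ratios of Tsku to Ahsg, Lect2 and Enho were over 10-fold lower in S100a16KO+/-, those of Fetub to Ahsg, Rbp4 to Ttr and Selenop to Sephs2 were higher without overlap, and those of Rbp4 to Selenop and Lect2 to Ahsg overlapped.

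The sequence before the start site was read for the 6 members that the RefSeq promoter table holds, in 11 windows of 250 bases on GRCm38.p6. The windows of 4 members are printed, 5′ to 3′ on the strand of the gene and ending at the base before the annotated start. They are shown because Tsku went the other way from the rest and because Fetub, Lect2 and Rbp4 have a window that overlaps no annotated exon and holds a searched motif. Capitals mark matches on either strand to any of 7 short motifs, none of which overlapped another in these windows. The motifs were TATAAA, bound by TBP, the E-box core CACGTG, the forkhead core TGTTTAC, the C/EBP half-site TTGCAAT, the HNF1 half-site GTTAAT, the core GACGTG that ATF6 and XBP1 bind, and the CCAAT box.
Tsku (chr7:98361329-98361578, minus strand): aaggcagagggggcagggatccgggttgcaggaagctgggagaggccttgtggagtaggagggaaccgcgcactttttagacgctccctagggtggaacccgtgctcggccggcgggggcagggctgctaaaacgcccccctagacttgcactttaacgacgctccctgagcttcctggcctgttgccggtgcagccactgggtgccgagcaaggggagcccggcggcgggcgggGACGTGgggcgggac
Fetub (chr16:22919972-22920221, plus strand): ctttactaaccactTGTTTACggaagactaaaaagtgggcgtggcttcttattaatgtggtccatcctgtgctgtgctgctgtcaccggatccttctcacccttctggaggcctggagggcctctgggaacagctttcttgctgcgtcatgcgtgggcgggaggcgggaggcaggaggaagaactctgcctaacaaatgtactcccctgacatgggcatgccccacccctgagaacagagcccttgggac
Lect2 (chr13:56548539-56548788, minus strand): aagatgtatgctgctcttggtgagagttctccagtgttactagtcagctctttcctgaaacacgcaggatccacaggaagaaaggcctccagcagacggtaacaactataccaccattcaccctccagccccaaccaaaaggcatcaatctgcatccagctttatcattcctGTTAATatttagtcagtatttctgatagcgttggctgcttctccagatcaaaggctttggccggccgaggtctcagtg
Rbp4 (chr19:38125322-38125571, minus strand): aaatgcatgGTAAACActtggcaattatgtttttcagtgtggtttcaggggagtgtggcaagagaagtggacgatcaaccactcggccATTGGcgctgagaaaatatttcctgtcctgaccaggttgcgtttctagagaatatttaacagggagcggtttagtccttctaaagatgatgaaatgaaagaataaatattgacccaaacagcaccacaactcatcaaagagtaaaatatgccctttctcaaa
The Tsku window had 68% G and C and 19 CpG, against a median of 52.4% and 6 CpG over all 32851 windows of the table. It held GACGTG from 15 to 10 bases before the start, a motif that 5.20% of all windows contained. Seen from another annotated Tsku start, the same GACGTG lay 55 to 50 bases upstream. Neither Tsku window had TATAAA, which 12.4% of all windows contained. The windows of Fetub and Rbp4 shown here, chosen for holding a motif, held the forkhead core TGTTTAC. It lay 236 to 230 and 241 to 235 bases before the start, and 3.17% of all windows contained it. The Fetub window shown lies inside the span of the gene. The Rbp4 window also held CCAAT on the other strand, as 33.8% of all windows do. The Lect2 window held GTTAAT from 78 to 73 bases before the start, found in 6.43% of all windows. Among the windows not printed, that of a Selenop start held TATAAA and TGTTTAC 10 to 5 and 24 to 18 bases upstream. Another start of Fetub and another of Rbp4 had TATAAA 31 to 26 and 28 to 23 bases upstream, and no TGTTTAC. That Rbp4 window also held GACGTG, 190 to 185 bases before the start, so the motif was not particular to Tsku. The single Ahsg window held none of the motifs, and the C/EBP half-site and the E-box core, present in 1.96% and 6.02% of all windows, were in none of the 11. A match describes the letters only and says nothing of binding.

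Some hepatokines outside the 7 genes differed far more strongly than the 6 higher members, in both directions. Of 26 such genes, all tested, 18 were called, 13 higher and 5 lower in S100a16KO+/- hepatocytes, beside 22.8% called of all tested genes. The median log2 fold change of these 26 genes was 0.18. The largest rises at a mean of at least 1 CPM were in Hamp, Manf and Fst. Hamp, which encodes the iron hormone hepcidin, had 102.3, 79.6 and 85.8 CPM in WT and 639.2, 832.1 and 614.5 CPM in S100a16KO+/- (log2 fold change 2.96, standard error 0.17, edgeR adjusted p = 1.54e-04). A close paralog of Hamp may share reads with it. Manf, a secreted factor of the endoplasmic reticulum stress response, rose from 24.2 ± 0.679 to 182.8 ± 3.38 CPM (SD, n = 3 each; log2 fold change 2.92, standard error 0.06, edgeR adjusted p = 1.34e-13). Fst, for the activin antagonist follistatin, rose from 4.42 ± 0.534 to 28.5 ± 1.5 CPM (log2 fold change 2.69, standard error 0.10, edgeR adjusted p = 2.16e-10). The falls of Angptl8, Inhbe and Fgf21 exceeded that of Tsku, with log2 fold changes of -4.00, -3.84 and -3.80 (standard errors 0.07, 0.07 and 0.13, edgeR adjusted p = 3.85e-14, 3.85e-14 and 9.01e-08). Angptl8 is a regulator of lipoprotein lipase, Inhbe encodes an activin subunit and Fgf21 is a fasting and stress hormone. Fgf21 fell from 119.0, 97.6 and 101.1 CPM to 7.5, 9.01 and 6.40 CPM. On the log2 scale Tsku stood closer to these genes than to any of the 6 members that were higher.

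**Figure D3:**
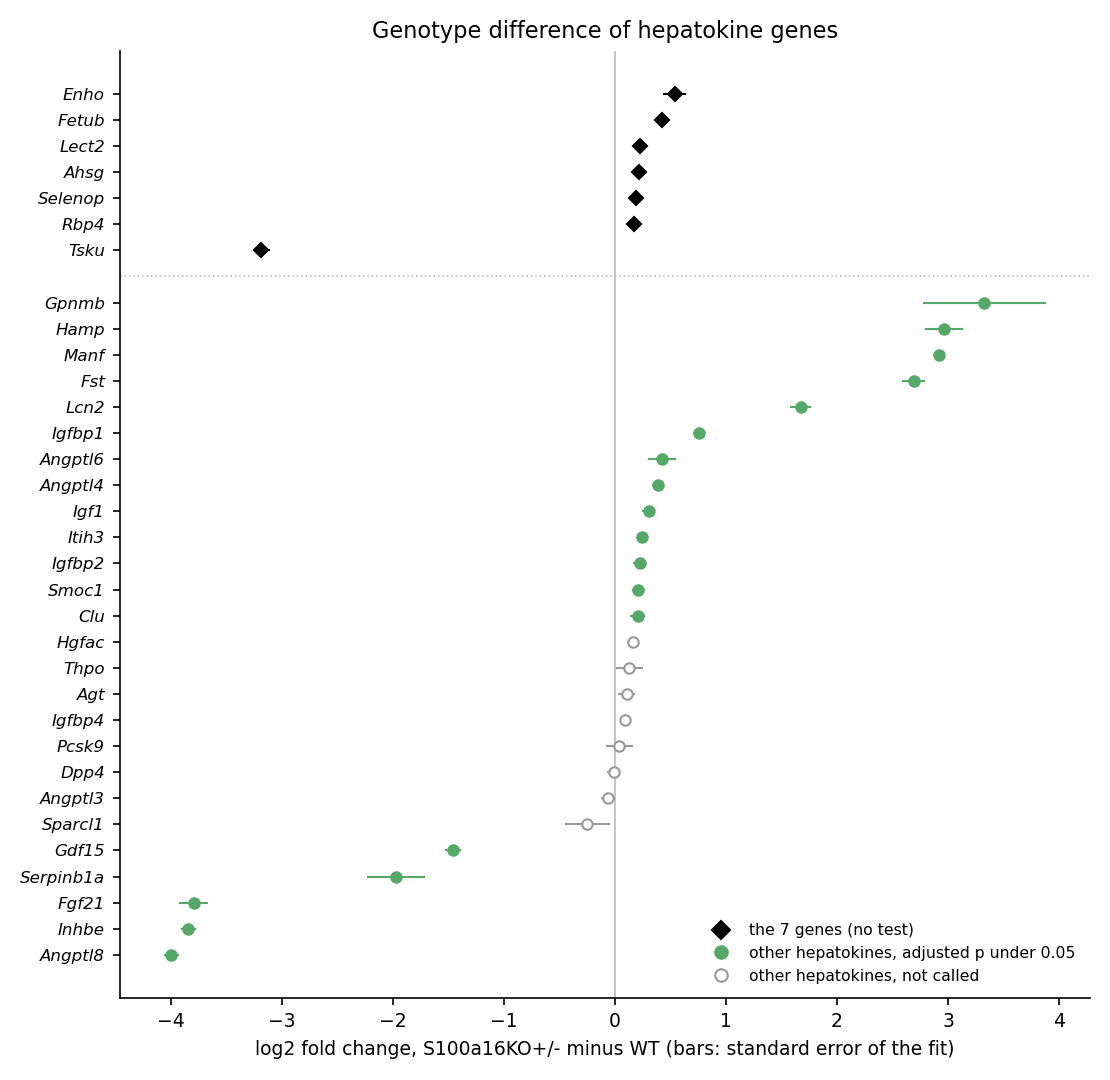
Log2 fold change of S100a16KO+/- against WT hepatocytes (x axis, bars are the standard error of the edgeR fit) for the 7 genes (black diamonds, no test) and 26 other hepatokine genes (green, adjusted p under 0.05; open grey, not called). Tsku lay at -3.19, near Fgf21, Inhbe and Angptl8, while the other 6 genes lay between 0.17 and 0.54.

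Genes of selenium use were called in 1 direction, and not the direction of Selenop. Of 16 tested genes of this list, 7 were called, all lower, beside 22.8% called of all tested genes. The median log2 fold change of the list was -0.17. Sephs2, which makes the selenium donor, fell from 463.7 ± 26.8 to 372.8 ± 22.6 CPM (SD, n = 3 each; log2 fold change -0.31, standard error 0.06, edgeR adjusted p = 0.00122). Dio1, the selenoenzyme that activates thyroid hormone, fell by 0.62 on the log2 scale (standard error 0.09, edgeR adjusted p = 2.43e-04), and Txnrd1, the cytosolic thioredoxin reductase, by 0.34 (standard error 0.06, edgeR adjusted p = 0.00138). The calls of Sephs2 and Txnrd1 were lost in the limma fits on log2 FPKM. The selenoenzyme genes Gpx1 and Gpx4 were not called, at log2 fold changes of -0.09 and -0.07. Selenop per Sephs2 stood at 15.0, 13.2 and 12.9 FPKM per FPKM in WT and at 18.6, 21.7 and 18.2 in S100a16KO+/-, a 1.42-fold higher mean without overlap. The selenoprotein P receptor genes Lrp8 and Lrp2 had at most 16 counts per library and were not tested, while Lrp1 was called lower.

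The retinol route around Rbp4 was divided. Of 15 tested genes, 4 were called higher and 6 lower, beside 22.8% called of all tested genes. The median log2 fold change of the list was -0.23. Ttr, whose product carries retinol-binding protein in plasma, had 4389, 3896 and 4101 CPM in WT and 3242, 3528 and 3099 CPM in S100a16KO+/- (log2 fold change -0.33, standard error 0.06, edgeR adjusted p = 6.45e-04). Rbp4 and Ttr therefore differed in opposite directions, and Rbp4 per Ttr was 1.01, 1.16 and 1.14 in WT and 1.60, 1.46 and 1.62 in S100a16KO+/-. Aldh1a1, which makes retinoic acid, fell by 0.66 on the log2 scale (standard error 0.05, edgeR adjusted p = 4.93e-07), and the related Aldh1a7 by 0.44 (standard error 0.06, edgeR adjusted p = 6.11e-05). These genes are close copies that may share reads. The rises were in Lrat, which esterifies retinol, at 0.81 (standard error 0.14, edgeR adjusted p = 5.85e-04), Bco1, which cleaves carotene, at 0.49 (standard error 0.15, edgeR adjusted p = 0.0313), Rdh11 at 0.48 (standard error 0.09, edgeR adjusted p = 8.62e-04) and Stra6l, a liver receptor for retinol-binding protein, at 0.28 (standard error 0.05, edgeR adjusted p = 0.00117). Lrat is also a stellate cell marker and moved with the stellate list given above, and the part of these cells in its rise was not tested. The call of Bco1, a gene of 3 to 5 CPM, was lost with a replicate block and when any library but WT replicate 3 was left out.

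Genes of cholesterol efflux and bile acid synthesis, a process to which tsukushi has been linked, were called in 7 of 12 cases. Over all tested genes the share was 22.8%. Of the 7, 5 were higher and 2 lower, and the median log2 fold change of the list was 0.15. Abcg5 and Abcg8, whose products form the biliary sterol transporter, rose from 74.9 ± 1.74 to 134.6 ± 5.84 CPM (SD, n = 3 each; log2 fold change 0.85, standard error 0.05, edgeR adjusted p = 5.41e-08) and by 0.59 (standard error 0.05, edgeR adjusted p = 9.13e-07). Scarb1, the receptor for high-density lipoprotein, rose by 0.78 (standard error 0.06, edgeR adjusted p = 4.18e-07), and the transporter gene Abcg1 by 0.83 (standard error 0.14, edgeR adjusted p = 4.71e-04). Cyp7a1, the rate-limiting enzyme of bile acid synthesis, fell from 237.1 ± 8.20 to 146.6 ± 8.50 CPM (log2 fold change -0.69, standard error 0.06, edgeR adjusted p = 6.12e-07). Abca1, which loads cholesterol onto apolipoprotein A-I, fell by 0.34 (standard error 0.05, edgeR adjusted p = 3.45e-04).

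Tsku differed from the other small leucine-rich proteoglycans. Of the 7 that could be tested, Dcn, Bgn, Lum and Prelp were called, each of them higher, beside 22.8% called of all tested genes. The median log2 fold change of the 7 was 0.70. Dcn, for decorin, rose from 24.3 ± 0.993 to 47.2 ± 4.09 CPM (SD, n = 3 each; log2 fold change 0.96, standard error 0.07, edgeR adjusted p = 2.64e-07). Lum and Prelp rose by 1.41 (standard error 0.28, edgeR adjusted p = 0.00190) and 0.75 (standard error 0.12, edgeR adjusted p = 2.61e-04), with Lum at 0.690 CPM in WT and 1.84 CPM in S100a16KO+/-. These are matrix proteins of mesenchymal cells, Dcn is itself on the stellate and fibroblast list, and the summed levels of that list and of the endothelial list differed in the same direction. The part of these cells in the rise was not tested. Among ligands and receptors tied to the 7 proteins, 4 of 9 tested genes were called, 2 in each direction, with a median log2 fold change of 0.13. Tgfb1, a ligand that tsukushi binds, rose by 0.88 (standard error 0.14, edgeR adjusted p = 2.63e-04) and Tek, an endothelial receptor gene, by 0.53 (standard error 0.10, edgeR adjusted p = 0.00133), again beside the higher endothelial markers. Fzd4 fell by 0.28 (standard error 0.06, edgeR adjusted p = 0.00437). Met, on whose receptor LECT2 acts, fell by 0.16 (standard error 0.05, edgeR adjusted p = 0.0469), a call that was lost in 14 of 18 alternative fits, including those without any 1 library.

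Of 16 regulator genes of the hepatocyte, mostly for transcription factors, 12 were called, 10 lower and 2 higher. Of all tested genes, 22.8% were called. The median log2 fold change of the list was -0.33. Foxa3 fell from 35.4 ± 1.52 to 14.8 ± 0.564 CPM (SD, n = 3 each; log2 fold change -1.26, standard error 0.07, edgeR adjusted p = 1.52e-08). Foxa2 and Prox1 fell by 0.88 (standard error 0.11, edgeR adjusted p = 6.39e-05) and 0.81 (standard error 0.05, edgeR adjusted p = 6.42e-08). Cebpb, an acute phase regulator, rose by 0.49 (standard error 0.09, edgeR adjusted p = 0.00166). Foxa1 had a log2 fold change of 0.38 (standard error 0.12, edgeR adjusted p = 0.0309), but its genotypes overlapped and the call was lost without WT replicate 2, WT replicate 3, S100a16KO+/- replicate 1 or S100a16KO+/- replicate 2. Hnf4a, the central regulator of hepatocyte identity, had 251.4 to 273.4 CPM in WT and 258.8 to 275.0 CPM in S100a16KO+/- and was not called.

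Among 9208 other genes that averaged 4 CPM or more, the profiles most like that of Tsku over the 6 libraries were those of Foxa3, Ephx2, Cyp2b10, Cebpa and Acnat1. Pearson's r on log2(CPM + 1) was between 0.9992 and 0.9998 for these 5 genes, and 151 genes passed 0.99. Since the 6 libraries fall into 2 clusters by genotype, such an r mainly restates the genotype gap, and it is given as a description without a p-value. The sizes of the falls were unlike. Tsku stood at 11.0% of its WT mean, whereas Cyp2b10, a drug-metabolizing cytochrome, had 344.5, 315.6 and 322.8 CPM in WT and 102.2, 111.6 and 100.6 CPM in S100a16KO+/-. Cebpa, a regulator of hepatocyte differentiation, had 192.7 to 195.3 CPM in WT and 117.8 to 120.9 CPM in S100a16KO+/-. Ephx2, the soluble epoxide hydrolase, had 417.9 to 428.0 and 279.5 to 288.4 CPM, and Acnat1, a fatty acid conjugating enzyme, 21.3 to 22.1 and 14.3 to 14.5 CPM. Cyp2b10 and Acnat1 have close copies in the genome that may share reads with them.

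**Figure D4:**
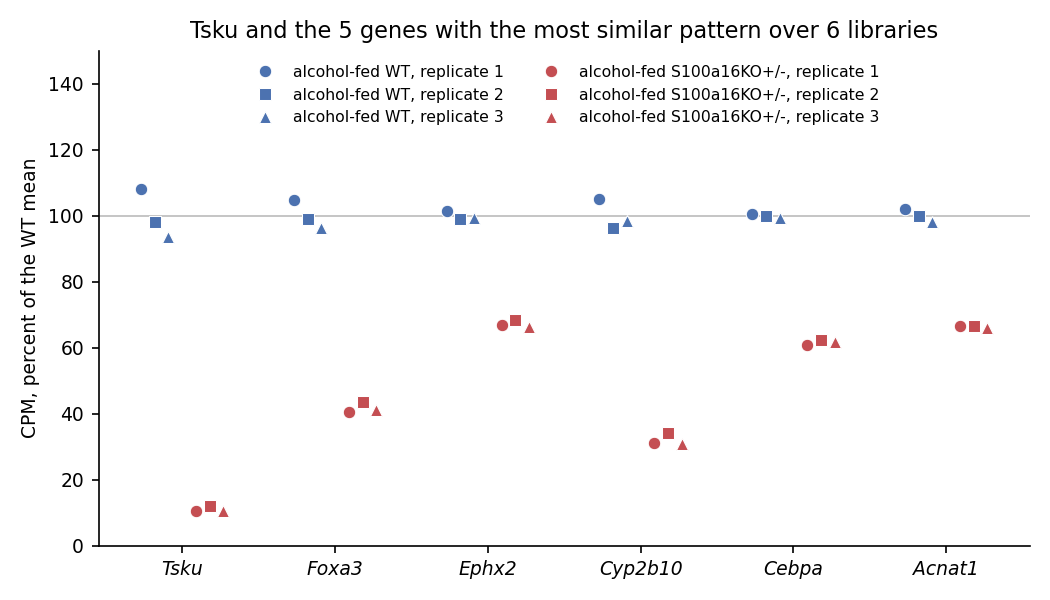
CPM as a percent of each gene's WT mean (y axis, from 0) for Tsku and the 5 genes with the highest Pearson's r with it, with 1 point for each library (3 alcohol-fed WT, 3 alcohol-fed S100a16KO+/-). In every gene the 3 S100a16KO+/- points lay below the 3 WT points, lowest in Tsku at 11.0% of the WT mean.

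Among the genes next to the other members, calls stood beside the background of 22.8% of all tested genes. Of 3 tested genes within 100000 bases of Lect2, Tgfbi was called (log2 fold change 0.70, standard error 0.10, edgeR adjusted p = 1.48e-04), and 2 of the 3 were called by DESeq2 and by limma voom. Of 3 near Rbp4, Pde6c was called (0.65, standard error 0.18, edgeR adjusted p = 0.0197). Of the 3 tested genes near Selenop and the 6 near Enho, 0 were called by edgeR, with 0 and 1 at an unadjusted p under 0.05. By DESeq2 the counts were 1 and 0, and by limma voom 0 and 0.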

How the data were processed

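Primary hepatocyte RNA from 6 libraries, 3 per genotype, was analysed. The labels give poly(A) selection, a strand-specific protocol with molecular identifiers and paired-end sequencing. The submitters' processing notes name cutadapt 1.9, HISAT2 2.0.4, UMI-tools, StringTie 1.3.4d, DESeq2, edgeR and mm10, without their roles, and the strand setting of the counting is not given in the sources used here. The authors deposited 1 table with an estimated count and an FPKM value per gene and library. The deposited FPKM are scaled by the authors for length and library size. The values of the estimated counts are integers and cluster at 4 (936 genes, against 561 at 3 and 259 at 5 in WT replicate 1), as if 1 fragment were worth about 4 counts, which was not tested. Of 25718 genes, 25655 were found in GENCODE M21 and 22191 (86.5%) with the same coordinates, 6 of the 7 members among them.

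The counts were fitted with edgeR 4.0.16 in R 4.3.3 (TMM, filterByExpr, robust quasi-likelihood fit, two-sided test, no covariate), with Benjamini-Hochberg adjustment over 15957 genes. CPM are TMM-scaled. The members and gene lists were chosen with earlier results of these data known, and no list was tested as a set. Named in each list are up to 3 called genes with the largest rise and 3 with the largest fall at a mean of at least 1 CPM, the 5 genes nearest to Tsku, S100a16, Hrg, Kng1 and Kng2. A gene that this rule names is not reported here. Other genes named were chosen after their values were seen. Marker lists covered hepatocytes, Kupffer cells, sinusoidal endothelium, stellate cells, cholangiocytes, lymphocytes, neutrophils and erythroid cells. Alternatives were a replicate block, leaving out each library, other scalings and filters, counts divided by 4, DESeq2 1.42.0, limma 3.58.1 (voom, or log2 FPKM with a pseudocount of 1 or 0.1) and other thresholds. A ratio to summed hepatocyte markers and a fit without WT replicate 1 and S100a16KO+/- replicate 2 were added after the data were seen.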

Additional observations from a re-analysis of the deposited data

How the results depend on the processing

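The log2 fold change of Tsku lay between -3.26 and -3.06 over 19 alternatives, -3.06 being the limma fit on log2(FPKM + 1), where the pseudocount lowers the fold change. The median of the other 6 members lay between 0.18 and 0.27, and no member changed sign. The count of 3643 called genes was 2188 and 2167 in the limma fits on log2(FPKM + 1) and log2(FPKM + 0.1), which tested fewer genes. It was 2229 at an adjusted p under 0.01 and 721 at an unadjusted p under 0.05 with a 2-fold limit. Companion genes, those of the 8 gene lists around the members, had 65 of 104 called, beside 22.8% of all tested genes. At an adjusted p under 0.05 with a 2-fold limit, 12 were called. With 1 library left out, the counts lay between 2734 and 3302 for all genes and between 53 and 61 for companion genes. The replicate block gave 3082 and 57. Same-numbered libraries did not deviate together (r from -0.05 to 0.05), so the numbers were not taken as pairs. Of 35 named companion genes, 30 were called at an adjusted p under 0.05 in each refit that tested them, and 0 reversed. Some refits left out genes of low level, such as Lrat, Abcg1 and Lum. The exceptions were Met, Bco1, Foxa1, Txnrd1 and Sephs2. Every refit left the median log2 fold change of its tested genes within 0.02 of 0.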

Other observations

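Few markers of the remaining cell types were called, beside 22.8% of all tested genes. Of 8 Kupffer cell markers, 1 was called, Marco, a scavenger receptor gene, which was higher in S100a16KO+/- (log2 fold change 0.74, standard error 0.14, edgeR adjusted p = 0.00118), while Clec4f had 32.2 to 37.8 CPM in WT and 32.4 to 37.8 CPM in S100a16KO+/-. Of 3 tested cholangiocyte markers, Sox9 was called, at a log2 fold change of -0.97 (standard error 0.23, edgeR adjusted p = 0.00643). Krt19 and Epcam went the other way, at 1.52 and 0.47, and were not called. They averaged only 0.397 and 0.179 CPM. Of 6 lymphocyte and 3 tested neutrophil markers, 0 were called by edgeR, DESeq2 or limma voom, with 1 in each list at an unadjusted p under 0.05 in edgeR. The lymphocyte and neutrophil markers were all below 4 CPM.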
